A study of Homo sapiens with 9 samples.

Results

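HaCaT keratinocytes made to express a demethylase-mutant FTO (mut-FTO, 3 libraries) were compared with HaCaT cells carrying an empty vector (Vector, 3 libraries) across all genes of the deposited table, 6 of the series' 9 libraries. The other 3 libraries came from cells expressing wild-type FTO. They entered the filter of genes, the scaling and the estimate of the spread between replicates, but were not compared. HaCaT is a spontaneously immortalized, aneuploid line of human epidermal keratinocytes, and all groups were labelled as this line. The labels do not name the mutation, the promoter of the construct, or whether a group was a clone or a pool of cells, and no treatment is given. Separate cultures for the 3 libraries of a group are not stated, so a p-value reflects only how these samples spread, and that spread may be technical. The table's columns carry letter codes, and the match of FTO and mut-FTO columns to their groups rests on those letters alone.

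FTO takes methyl groups off adenosine in RNA, chiefly from N6-methyladenosine (m6A), a mark that influences the stability, splicing and translation of messenger RNA. Keratinocytes of the basal layer divide on a laminin-rich basement membrane. As they leave it they switch on suprabasal keratins and then the small proline-rich proteins and transglutaminases that build the cornified envelope, the protein shell of the skin surface. Keratinocytes also make interleukin 1 cytokines, chemokines and antimicrobial proteins, and they respond to interferon.

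Libraries held 32222203 to 36387283 counts in mut-FTO and 33824317 to 34999460 in Vector. Vector replicate 3 stood apart: mitochondrially encoded genes took 14.97% of its counts, against 4.161% and 4.203% in the other Vector libraries and 5.522% to 7.446% in mut-FTO. Assembled loci without a gene name took 2.498% of the counts of Vector replicate 3 and 3.169% of those of mut-FTO replicate 2, against 0.77% to 0.865% in the other 4 libraries. The SD of a gene's log2 level over the libraries of a group had a median of 0.366 for the Vector libraries, 0.145 for them without replicate 3, and 0.23 for the mut-FTO libraries. All 10 keratinocyte markers were expressed. Of the markers of other cells, 4 of 10 for fibroblasts, 3 of 10 for leukocytes, 2 of 7 for melanocytes and 1 of 8 for endothelial cells had enough counts to be tested. Those tested were COL1A1, LUM, DCN and PDGFRA for fibroblasts, CD3E, CD68 and ITGAM for leukocytes, PMEL and MITF for melanocytes, and CDH5 for endothelial cells. Others, among them THY1, POSTN, MS4A1, TYR, SOX10 and PECAM1, had no count in any of the 6 libraries. Summed over the tested leukocyte markers, levels were 51.75 to 79.81 CPM in Vector and 45.11 to 81.43 CPM in mut-FTO. Nearly all of this was CD68. CD3E stood at 0.280 to 0.874 CPM in Vector and 0 to 0.679 CPM in mut-FTO, and ITGAM at 0 to 0.175 CPM and 0.231 to 0.757 CPM. The fibroblast sum was 9.028 to 9.953 CPM against 9.513 to 10.69 CPM, the melanocyte sum 0.9226 to 1.325 CPM against 1.46 to 2.54 CPM, and the endothelial sum 0.8176 to 1.566 CPM against 0 to 0.3394 CPM. DCN was the only tested marker of these other cells that passed with all libraries. The endothelial marker CDH5 passed without Vector replicate 3 (adjusted p = 0.0528, and 0.0213 without it), lower in mut-FTO, and was called with all libraries by DESeq2 and limma-voom. In bulk RNA, fewer cells that express a gene and less RNA per cell cannot be told apart.

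Expression differed widely between the groups. Of 13713 genes tested, 449 rose (3.27%) and 618 fell (4.51%) in mut-FTO (edgeR's quasi-likelihood test, Benjamini-Hochberg adjusted p under 0.05). Every adjusted p that follows comes from this test unless DESeq2 is named. Without Vector replicate 3, 917 genes rose (6.69%) and 1169 fell (8.52%). Of the calls with all libraries, 435 rises and 590 falls were also made without it, 14 and 28 were not, and no gene was called in opposite directions. The fit without the library added 482 rises and 579 falls. In a principal component analysis of the 500 genes of highest variance, the leading component held 53.7% of the variance, with Vector libraries at −25.95 to −30.22 and mut-FTO libraries at 25.79 to 31.5.

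Many changes were large. The log2 change reached at least 1 in 292 of the genes that rose and 410 of those that fell, and at least 3 in 43 and 88. The 3 mut-FTO libraries did not overlap the 3 Vector libraries in 448 of the 449 rises (3.27% of all genes called) and 615 of the 618 falls (4.51%). Among all 13713 genes tested, called or not, 1671 were higher and 1622 lower without overlap. Genes below 1 CPM (a gene's counts scaled to the normalized size of its library) gave 32 rises and 63 falls among 1653 tested (1.94% and 3.81%). Genes at 1 to 10 CPM gave 175 and 238 among 3788 (4.62% and 6.28%). Genes at 10 to 100 CPM gave 174 and 245 among 6456 (2.70% and 3.79%), and genes above 100 CPM 68 and 72 among 1816 (3.74% and 3.96%). The median log2 change of all genes was −0.001, and 0.025 without Vector replicate 3. The 37 gene lists described below held 116 of the rises and 144 of the falls. Counts given for a list without Vector replicate 3 stand beside 6.69% of all genes higher and 8.52% lower in that fit.

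**Figure D1:**
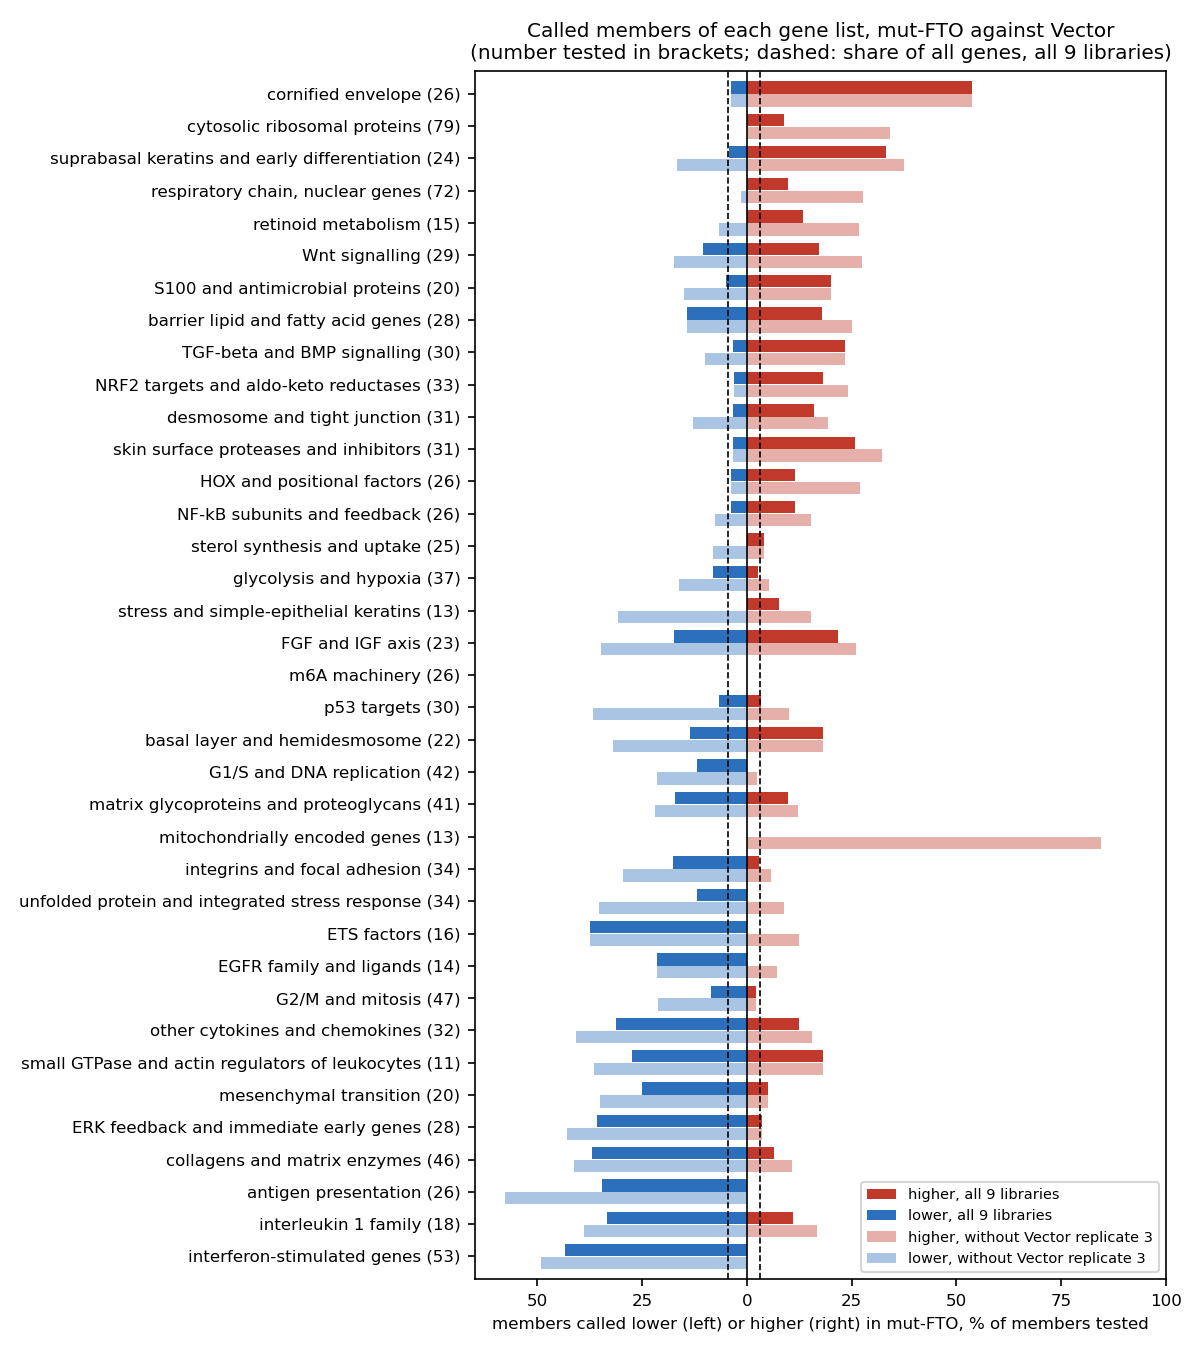
Share of tested members of each gene list called lower (left, blue) or higher (right, red) in mut-FTO than in Vector, with all 9 libraries (dark) and without Vector replicate 3 (pale), ordered by the list's median change. Dashed lines mark the 3.27% and 4.51% of all genes called with all 9 libraries and serve the dark bars only. Without Vector replicate 3 (pale bars) these shares were 6.69% and 8.52%, for which no line is drawn. Cornified envelope genes stand at the top and interferon-stimulated genes at the bottom, while the mitochondrially encoded genes had calls only in the pale bars.

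FTO RNA checked the labels against the table. FTO stood at 18.4, 17.0 and 25.8 CPM in Vector and at 49.7, 82.7 and 64.2 CPM in mut-FTO. It was higher in every mut-FTO library than in any Vector library, by 1.68 on the log2 scale (SE 0.22; adjusted p = 0.000513). The endogenous and the introduced FTO transcript are counted together, and the mutation cannot be seen in them.

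FN1, which encodes fibronectin, a large glycoprotein of the extracellular matrix that binds integrins, stood at 220.1, 229.8 and 278 CPM in Vector and 7, 8.93 and 7.25 CPM in mut-FTO. The groups were far apart, with a 31.4-fold fall (log2 −4.97, SE 0.23; adjusted p = 2.9e-07). IL1B, the gene of interleukin 1 beta, an inflammatory cytokine, stood at 399.7, 381 and 446 CPM against 44.4, 52.2 and 44.1 CPM, 8.73-fold lower (adjusted p = 4.79e-07). SPINK6, which inhibits kallikrein proteases in skin, had no count in any Vector library and reached 7.70, 6.96 and 6.53 CPM in mut-FTO. That is at least 249-fold higher when the Vector group as a whole is set at 3 counts (adjusted p = 2.55e-06). FLI1, an ETS transcription factor, stood at 2.89, 2.15 and 3.44 CPM in Vector and at 0, 0.0679 and 0 CPM in mut-FTO. Its group totals were 298 and 2 counts, a ratio of 143 with a counting interval of 39.2 to 1185 (adjusted p = 8.78e-05), and both mut-FTO counts came from replicate 2. Each of these calls was kept with any library left out. In the wild-type FTO libraries, which were not compared here, FN1 stood at 25.2, 39.0 and 26.9 CPM.

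The changes were not spread evenly over the chromosomes. RefSeq (GRCh38.p14) placed 12704 of the tested genes (92.6%) on chromosomes 1 to 22 or X by symbol or synonym, and of these 3.40% rose and 4.64% fell. Matching by name can misplace a gene, as with the mitochondrially encoded MT-CO2, which was placed on chromosome 1. On the X chromosome, an unbroken run of 139 tested genes from PLCXD1 at its start to CLCN5, most of the short arm, was lower almost throughout. In that run 132 genes had a negative log2 change, 60 fell (43.2%) and only TSPAN7 rose, and the median was −0.78. Without Vector replicate 3 the median was also −0.78, and 78 genes fell. In the remaining 266 tested genes of X, from SHROOM4 on, 9 fell and 8 rose, with a median of 0.04, and 0.12 without Vector replicate 3. The point between the runs was set where it fitted the values best, after they had been seen, so the contrast is a description without a test.

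Against the mean of Vector replicates 1 and 2, the median of the run from PLCXD1 to CLCN5 was −0.71, −0.78 and −0.74 in the mut-FTO libraries, 0.12 in Vector replicate 3, and −0.27, −0.26 and −0.20 in the wild-type FTO libraries. The mut-FTO libraries lay together, below the other 6. UBA1, the main ubiquitin-activating enzyme, stood at 479, 499 and 479 CPM in Vector and 227, 312 and 269 CPM in mut-FTO (1.80-fold lower; adjusted p = 0.00461). EIF2S3, a subunit of translation initiation factor eIF2, stood at 143, 159 and 163 CPM against 88.9, 76.5 and 82.6 CPM (1.87-fold lower; adjusted p = 0.00151). CDK16, a cyclin-dependent kinase, fell 2.06-fold and TFE3, a transcription factor of lysosomal genes, 1.79-fold. The fall of these genes, named after their values were seen, was kept with any library left out. SH3KBP1, TIMP1 and ELK1, which are described below with other groups, lie in this run.

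Chromosome 14 went the other way. Of its 431 placed genes 45 rose (10.4%) and 11 fell, with a median of 0.35, and 125 rose and 16 fell without Vector replicate 3, with a median of 0.39. Its median against Vector replicates 1 and 2 was 0.41, 0.33 and 0.40 in mut-FTO, 0.09 in Vector replicate 3 and 0.13 to 0.15 in wild-type FTO. Among called members of the gene lists below, TGM1, NFKBIA, TNFAIP2, GPX2, RPS29 and NDUFB1 rose on chromosome 14. RNASE7, IFI27 and LTBP2, also on it, fell. Chromosome 15 had a median of −0.26 (36 of 427 fell, 8.43%, and 9 rose), and −0.21 without Vector replicate 3. Chromosome 18 had a median of −0.33 (25 of 176 fell, 14.2%, and 1 rose), which was −0.21 without that library, in which it stood at 0.33. Chromosome 22 had a median of 0.30 (30 of 310 rose, 9.68%, and 6 fell), which was 0.18 without Vector replicate 3, in which it stood at −0.43. Genes named below are not marked where they lie on chromosomes 15, 18 or 22, nor, outside the lists, on chromosome 14. DNA was not measured in these samples, and whether the number of chromosome copies differed between the groups was not tested. The construct and other traits of the cells of a group cannot be told apart.

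**Figure D2:**
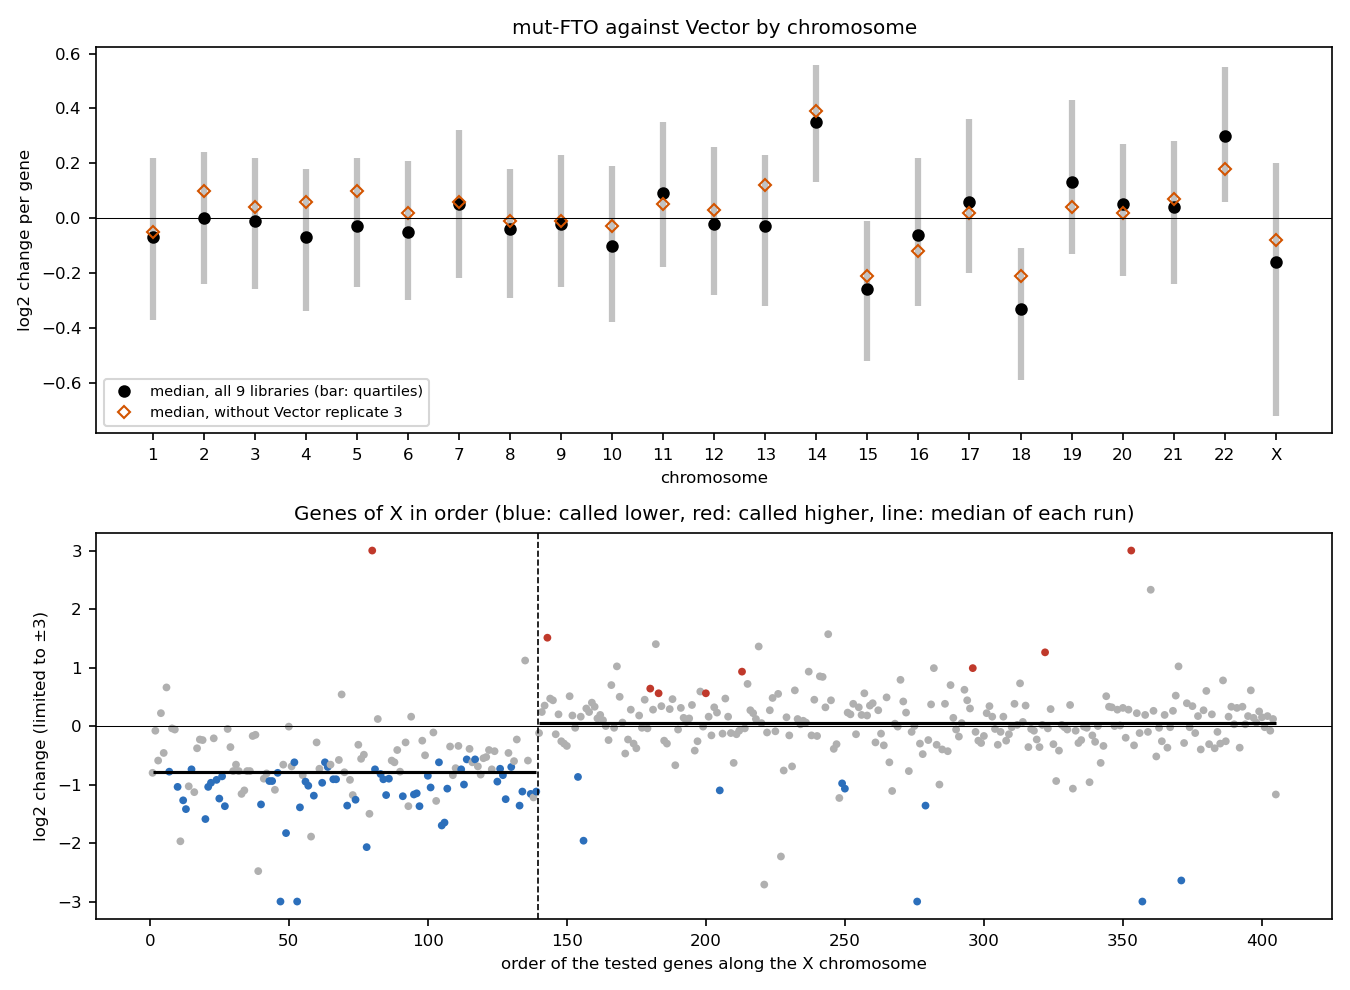
Top: log2 change of placed genes by chromosome, mut-FTO against Vector, with the median (black point), the quartiles (bar) and the median without Vector replicate 3 (orange diamond). Bottom: log2 change of each tested gene of X in order along the chromosome, blue where it fell and red where it rose, with the dashed line between CLCN5 and SHROOM4 and the medians of −0.78 and 0.04 drawn as lines.

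Among genes averaging 10 CPM or more in their higher group, the largest rise was that of TMEM37, which encodes a subunit of voltage-gated calcium channels, and the largest fall that of IFI6, an interferon-induced gene. TMEM37 stood at 0.234, 0.112 and 0.423 CPM in Vector and 10, 9.67 and 11.3 CPM in mut-FTO (39.7-fold higher, and 58.5-fold without Vector replicate 3; adjusted p = 5.87e-06). KRT1, SPRR2E, AKR1B10, CLDN8 and TMPRSS11E came next. They encode a suprabasal keratin, a cornified envelope protein, an aldo-keto reductase, a tight junction claudin and a membrane-bound serine protease. CCDC69, SAMD11 and SDK1, an adhesion molecule of the immunoglobulin superfamily, rose 9.81-fold, 9.26-fold and 8.90-fold. C10orf99, a secreted antimicrobial peptide of epithelia, rose from 21.8, 27.8 and 29.7 CPM to 212, 247 and 209.5 CPM, and ATP10B, a lipid-transporting ATPase, rose 8.09-fold. FAM46B rose 7.54-fold.

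The falls held several secreted signals and adaptors. SFRP1, a secreted antagonist of Wnt ligands, fell from 10.1, 11.1 and 11 CPM to 0.378, 0.543 and 0.722 CPM (19.5-fold; adjusted p = 6.84e-06). GRB10, an adaptor that restrains insulin receptor signalling, fell 9.41-fold, and SH3KBP1, an adaptor in the internalization of growth factor receptors, 8.69-fold. SERPINA1, the gene of alpha-1 antitrypsin, fell from 18.5, 23.7 and 32.5 CPM to 1.57, 3.97 and 3.38 CPM. LCP1, the actin-bundling plastin 2, fell from 66.9, 59.1 and 66.1 CPM to 6.84, 7.26 and 6.59 CPM (9.28-fold; adjusted p = 4.79e-07). All 24 of these genes were called with any library left out.

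**Figure D3:**
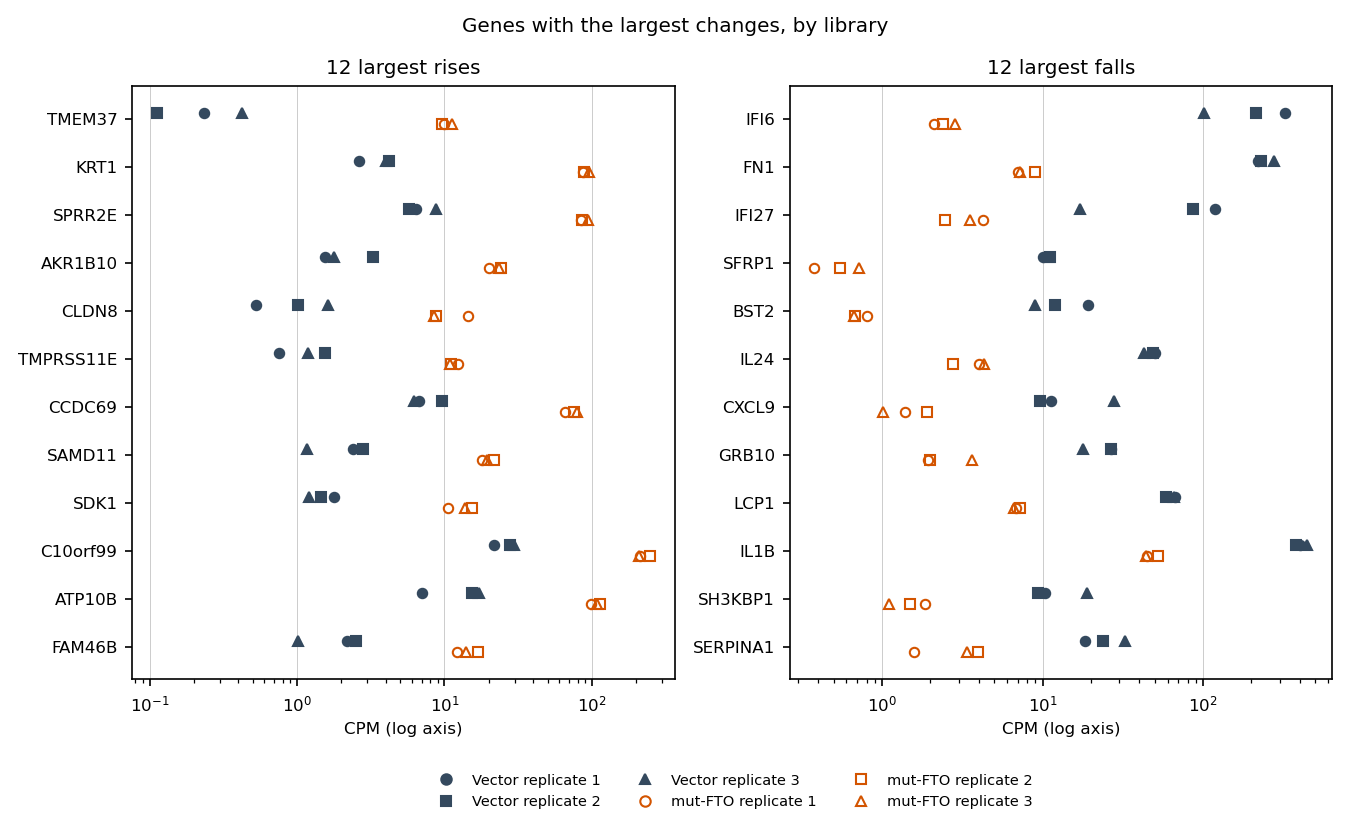
CPM on a log axis of the 12 genes with the largest rises (left) and falls (right), with Vector libraries as filled and mut-FTO libraries as open symbols. Genes were chosen among those without overlap of the groups, so the separation follows from the choice. Vector replicate 3 (filled triangle) is the lowest Vector library for IFI27, at 17.0 CPM.

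Of 26 tested cornified envelope genes, 14 rose, 1 fell and 11 did not pass. The list's median log2 change was 1.95, against −0.001 over all genes, and it was 2.33 without Vector replicate 3. Without that library 14 rose as well, 13 of them the same genes. SPRR2E stood at 6.40, 5.76 and 8.71 CPM in Vector and 83.8, 86.1 and 93.4 CPM in mut-FTO (12.6-fold higher; adjusted p = 7.5e-07). SPRR2D rose 6.54-fold, SPRR2A 6.30-fold, SPRR2F 6.91-fold, SPRR1A 6-fold and SPRR1B 7.33-fold. All encode small proline-rich proteins that transglutaminases cross-link into the envelope. SPRR2 genes are near-identical copies, and how reads were divided among them is not known. SPRR1B stood at 22.4, 20.8 and 58.0 CPM in Vector, with replicate 3 the highest, and at 201, 333 and 208 CPM in mut-FTO. Without that library the rise was 11.4-fold for SPRR1B and 9.14-fold for SPRR1A.

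The cross-linking transglutaminase TGM1, on chromosome 14, rose from 112, 153 and 99.2 CPM to 216, 284 and 255 CPM (2.07-fold), and TGM5 rose 6.41-fold. CASP14, a protease of terminal differentiation, rose 3.84-fold, and 6.09-fold without Vector replicate 3. The member that fell was TGM2, a tissue transglutaminase that acts on matrix proteins, from 83.1, 89.1 and 62.6 CPM to 11.5, 19.1 and 14.3 CPM (5.24-fold; adjusted p = 3.54e-05). The calls of SPRR2G, SPRR4, LCE3D and CSTA were lost in 3 to 8 of the 9 fits without a single library (adjusted p up to 0.175). Most SPRR and LCE genes lie together in the epidermal differentiation complex of chromosome 1. There a block of 25 consecutive tested genes from C2CD4D to PGLYRP4 had 13 rises and 1 fall and a median of 1.95, so many of these members are neighbours. Filaggrin, a late marker, did not pass: FLG changed by 1.87 on the log2 scale with an SE of 0.87 (adjusted p = 0.241). Involucrin, counted below with the genes of early differentiation, did not pass either. IVL stood at 1.96, 2.04 and 3.10 CPM against 2.78, 5.43 and 4.91 CPM (adjusted p = 0.171).

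Sequence before the start sites of 4 of the SPRR genes that rose is shown because several members of this family rose. They were chosen among those with a match. Capitals mark TGANTCA, the core recognized by AP-1 factors, which reads the same on both strands. Stretches of 60 bases are from RefSeq, GRCh38.p14, on the gene's strand: SPRR1B at chr1:153031049-153031108 (+), SPRR1A at chr1:152983930-152983989 (+), SPRR2A at chr1:153057693-153057752 (−) and SPRR2F at chr1:153113696-153113755 (−).
SPRR1B: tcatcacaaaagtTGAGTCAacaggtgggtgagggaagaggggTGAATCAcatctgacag
SPRR1A: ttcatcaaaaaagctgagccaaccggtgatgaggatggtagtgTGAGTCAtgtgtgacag
SPRR2A: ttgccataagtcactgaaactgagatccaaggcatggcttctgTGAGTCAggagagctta
SPRR2F: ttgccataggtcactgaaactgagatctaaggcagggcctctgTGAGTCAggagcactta
TGANTCA was found in the 250 bases before the start in 6 of the 10 cornified envelope genes that rose and have a window in the table, SPRR2G and CASP14 besides the 4 shown. SPRR2 genes are near-identical copies, as the SPRR2A and SPRR2F stretches show, so their matches are not independent of each other. The windows of SPRR2B, SPRR4, LCE3D and TGM5 held no match, and SPRR2D, SPRR2E, TGM1 and CSTA have no window there. The motif was found in 6.57% of all 35116 windows of that length in 6.33% of the tested genes with a window, in 9.24% of all rises and in 9.22% of all falls. Among interleukin 1 family genes that fell, 3 of 5 windows held it. A match describes the sequence and does not show that a factor binds.

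Of 24 tested genes of early differentiation 8 rose, 1 fell and 15 did not pass (median 0.57, and 0.44 without Vector replicate 3, where 9 rose and 4 fell). KRT1, the keratin of the spinous layer, stood at 2.63, 4.22 and 4.03 CPM in Vector and 87.2, 88.9 and 94.8 CPM in mut-FTO (24.8-fold; adjusted p = 2.9e-07). Its partner KRT10 did not pass, at 56.2, 45.9 and 34.8 CPM against 76.6, 59.8 and 70.7 CPM (adjusted p = 0.0735). KRT4 and KRT13, the keratin pair of stratified mucosal epithelia, rose together. KRT4 went from 17.0, 16.2 and 11.3 CPM to 99.2, 107 and 114 CPM (7.19-fold) and KRT13 from 252, 251 and 179 CPM to 737, 949.5 and 832 CPM (3.69-fold). SBSN, a secreted protein of upper layers, rose 8.70-fold, NOTCH3, a receptor that promotes leaving the basal layer, 2.09-fold, and GRHL3, a transcription factor of barrier formation, 2.65-fold. SERPINB2, a plasminogen activator inhibitor, fell from 206, 182 and 224 CPM to 86.9, 75.6 and 88.3 CPM (2.44-fold; adjusted p = 0.000295).

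Basal genes moved in both directions. Of 22 tested, 4 rose, 3 fell and 15 did not pass (median −0.16, and −0.17 without Vector replicate 3, where 7 fell). KRT15, a keratin of basal and stem-like cells, rose from 886, 957 and 656 CPM to 1781, 2359.5 and 2050.1 CPM (2.48-fold; adjusted p = 0.000911). KRT14, its widespread basal counterpart, rose 1.88-fold from 5503, 5246 and 3913 CPM to 8306, 10383 and 8945 CPM, a call that was lost without mut-FTO replicate 2 (adjusted p = 0.0509). Its partner KRT5 rose 1.61-fold, a call that was kept only without Vector replicate 1 or 3 (adjusted p up to 0.172 otherwise). LAMA3, which encodes a chain of the laminin that anchors basal cells, fell from 360.4, 396 and 505 CPM to 161, 175 and 166 CPM (2.51-fold; adjusted p = 0.000281). LAMB3, another chain of that laminin, did not pass (log2 0.01, SE 0.22; adjusted p = 0.989). SOX2 rose 4.13-fold and SOX9 fell 2.28-fold; both are transcription factors of epithelial progenitors. Of 13 stress and simple-epithelial keratins only KRT16, a keratin of activated epidermis, rose (48.0, 66.1 and 26.0 CPM to 176, 193 and 192 CPM). KRT8 and KRT18, the keratins of simple epithelia, fell without Vector replicate 3 (log2 −0.83 and −0.89; adjusted p = 0.00024 and 3.65e-05). With it their changes were −0.54 and −0.64 (adjusted p = 0.251 and 0.0966). With all libraries edgeR called no member of this list lower and 3 were lower at an unadjusted p under 0.05, while DESeq2 called KRT18 (adjusted p = 0.0414) and the hair keratin KRT81 (adjusted p = 0.025) lower.

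Proteases and protease inhibitors of the skin surface gave 8 rises and 1 fall among 31 tested genes (median 0.13, and 0.03 without Vector replicate 3, where 10 rose and 1 fell). Most of those that rose were inhibitors. Besides SPINK6 they were WFDC12 (1.05, 0.671 and 0.902 CPM to 9.57, 10.8 and 7.68 CPM; adjusted p = 1.48e-05), WFDC5 (4.32-fold), the elastase inhibitor elafin, PI3 (3.96-fold), and its relative SLPI (2.60-fold). The airway-type serine proteases TMPRSS11E and TMPRSS11D rose 9.81-fold and 3.33-fold. CTSL, a lysosomal cathepsin, fell from 239.7, 239 and 269 CPM to 71.3, 69.6 and 66.6 CPM (3.60-fold; adjusted p = 1.22e-05). Of 20 S100 and antimicrobial genes 4 rose and 1 fell. PGLYRP3 and PGLYRP4, which bind bacterial peptidoglycan, rose 5.09-fold and 3.56-fold, and RNASE7, an antimicrobial ribonuclease, fell 4.11-fold. S100A8 and S100A9, which mark inflamed epidermis, did not pass (log2 0.58 and 0.49; adjusted p = 0.128 and 0.229).

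Of the junction genes, 5 of 31 desmosome and tight junction genes rose and 1 fell (median 0.14, and −0.01 without Vector replicate 3, where 6 rose and 4 fell). CLDN8 went from 0.526, 1.01 and 1.61 CPM to 14.5, 8.72 and 8.55 CPM (10.1-fold), while CLDN23, another claudin, went from 4.38, 4.45 and 3.47 CPM to 0.649, 0.238 and 0.751 CPM (7.38-fold lower). The connexin genes GJB6 and GJB2 rose 1.90-fold and 1.65-fold, and the call of GJB2 was lost without Vector replicate 2 (adjusted p = 0.0504).

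Of 53 tested interferon-stimulated genes, 23 fell in mut-FTO, 30 did not pass and none rose (4.51% of all genes fell, as given above). By edgeR, 1 of the 53 was higher at an unadjusted p under 0.05, and DESeq2 and limma-voom called no rise. Of the 53, 46 had a negative log2 change. The list's median was −0.64, and −0.43 without Vector replicate 3, where 26 fell, the 23 among them. With any library left out, 19 of the falls kept their call. HERC5, XAF1, IFITM1 and LGALS3BP did not, at adjusted p up to 0.182. IFI6 stood at 326, 215 and 101 CPM in Vector and 2.11, 2.41 and 2.86 CPM in mut-FTO (86.9-fold lower, and 111-fold without Vector replicate 3; adjusted p = 1.89e-06). IFI27 stood at 119, 87.0 and 17.0 CPM against 4.27, 2.48 and 3.52 CPM (21.6-fold). The Vector libraries spread widely for both genes, with replicate 3 the lowest, and none reached the level of a mut-FTO library.

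BST2, or tetherin, which holds budding virus on the cell surface, stood at 19.2, 11.9 and 8.99 CPM against 0.811, 0.679 and 0.664 CPM (18.5-fold lower). MX1, a GTPase that blocks influenza, stood at 12.7, 12.9 and 16.7 CPM against 2.57, 2.99 and 3.24 CPM (4.81-fold), and OAS2, a sensor of double-stranded RNA, at 20, 23.4 and 29.8 CPM against 4.70, 4.24 and 4.65 CPM (5.38-fold). RSAD2, or viperin, fell 7.26-fold, IFIT2 5.70-fold, IFIT1 4.33-fold and IFIT3 2.99-fold. IFIT genes resemble each other and their reads may be divided. Vector replicate 3 was the highest Vector library for MX1, OAS2 and IFIT2 and the lowest for IFI6, IFI27 and BST2. ISG15, a ubiquitin-like modifier, passed only without that library: it stood at 87.5, 62.5 and 19.6 CPM against 26.2, 19.6 and 25.1 CPM (adjusted p = 0.0690, and 2.75e-06 without it). IRF9, a transcription factor of the interferon response, did not pass in either fit, with a log2 change of −0.13 (SE 0.16; adjusted p = 0.708).

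Stretches before the start sites of 6 of the falling genes are shown. The genes were chosen among those that hold a known element, so that they share it follows from the choice. Capitals mark GAAA, any 2 bases and GAAA again, or on the other strand TTTC, any 2 bases and TTTC, the core of the interferon-stimulated response element. Adjacent matches may overlap, as they do in BST2. The stretches are from RefSeq, GRCh38.p14, on the gene's strand: IFI6 at chr1:27672266-27672325 (−), IFI27 at chr14:94110601-94110660 (+), BST2 at chr19:17405735-17405794 (−), RSAD2 at chr2:6877592-6877651 (+), IFIT1 at chr10:89392480-89392539 (+) and DDX60, a helicase of RNA sensing, at chr4:168318786-168318845 (−).
IFI6: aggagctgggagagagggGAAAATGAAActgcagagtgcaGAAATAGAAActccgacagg
IFI27: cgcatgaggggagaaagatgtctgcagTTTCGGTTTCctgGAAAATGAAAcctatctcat
BST2: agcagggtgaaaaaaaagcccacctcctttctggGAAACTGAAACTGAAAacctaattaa
RSAD2: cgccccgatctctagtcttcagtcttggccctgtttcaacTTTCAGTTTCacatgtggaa
IFIT1: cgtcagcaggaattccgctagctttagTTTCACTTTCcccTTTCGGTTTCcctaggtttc
DDX60: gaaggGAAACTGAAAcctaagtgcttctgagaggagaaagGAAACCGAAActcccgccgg
Of the 23 interferon-stimulated genes that fell, 19 had a window of 250 bases in the table, and 15 of these (78.9%) held the element. Of the 30 that did not pass, 24 had a window and 11 (45.8%) held it. It was found in 3.02% of all windows, 3.3% of the tested genes, 2.97% of all genes that rose and 6.68% of all genes that fell. That last share is 29 of 434 genes with a window, and the 29 include the 15 interferon-stimulated genes.

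**Figure D4:**
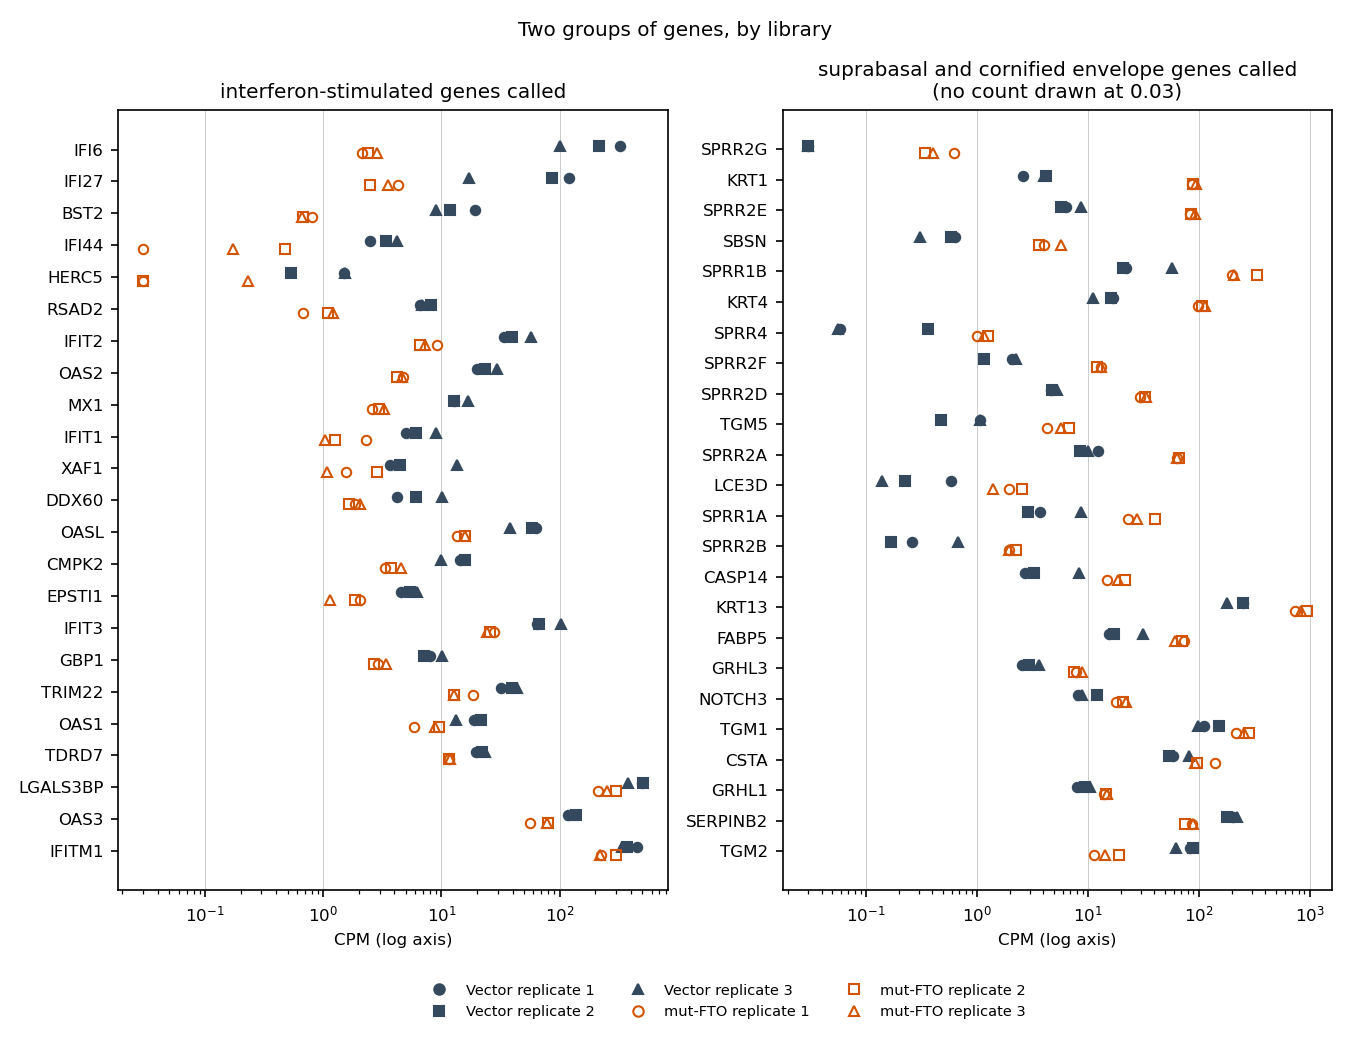
CPM on a log axis of the called members of the interferon list (left) and of the early differentiation and cornified envelope lists (right), with Vector libraries as filled and mut-FTO libraries as open symbols. The 23 interferon-stimulated genes are drawn because they were called lower. Of the differentiation genes called, all lie higher except SERPINB2 and TGM2. Members that did not pass are not drawn (30 interferon-stimulated, 15 early differentiation and 11 cornified envelope genes).

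Of 26 antigen presentation genes 9 fell, 17 did not pass and none rose with edgeR, also at an unadjusted p under 0.05, DESeq2 or limma-voom (median −0.56, and −0.83 without Vector replicate 3, where 15 fell). B2M, the shared light chain of MHC class I, stood at 2944, 2830.0 and 3233 CPM in Vector and 1545, 1423 and 1346 CPM in mut-FTO (2.09-fold lower; adjusted p = 0.00124). CD74, the invariant chain that escorts MHC class II, stood at 51.0, 59.5 and 61.5 CPM against 9.70, 22.6 and 14.6 CPM (3.68-fold). The class II chain HLA-DRA fell 3.16-fold and CTSS, the cathepsin that trims CD74, 4.07-fold. The class I heavy chains HLA-B and HLA-C passed only without Vector replicate 3, in which their levels were lower than in the other Vector libraries. HLA-B, for example, stood at 1305, 1249 and 518 CPM in Vector and 544, 526 and 566 CPM in mut-FTO (adjusted p = 0.0641, and 8.03e-07 without that library). HLA genes resemble each other, so their single values are uncertain.

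Interleukin 1 family genes gave 6 falls and 2 rises among 18 tested (median −0.56, and −0.62 without Vector replicate 3). Agonists led the falls. IL1A, the membrane-associated agonist, stood at 174, 194 and 384 CPM in Vector, with replicate 3 the highest, and at 38.8, 27.2 and 24.4 CPM in mut-FTO (8.31-fold lower; adjusted p = 7.05e-05). IL33, an alarmin of epithelial cells, stood at 0.964, 2.04 and 4.74 CPM and had no count in mut-FTO, at least 87.5-fold lower with that group set at 3 counts, and at least 51-fold without Vector replicate 3. NLRP1, the inflammasome sensor of keratinocytes, fell from 12.4, 13.8 and 12.3 CPM to 4.22, 4.48 and 5.69 CPM (2.68-fold). The receptor antagonist IL1RN fell 1.71-fold. The decoy receptor IL1R2 and the processing enzyme CASP1 rose 1.79-fold and 1.70-fold, but IL1R2 lost its call without 2 of the 9 libraries and CASP1 without each library except Vector replicate 3.

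Of 32 other cytokine and chemokine genes 10 fell, 4 rose and 18 did not pass (median −0.37, and −0.49 without Vector replicate 3, where 13 fell and 5 rose). IL24, an IL-10 family cytokine made by keratinocytes, fell from 50.3, 48.7 and 43.1 CPM to 4, 2.75 and 4.33 CPM (12.8-fold; adjusted p = 1.44e-06). CXCL9, which attracts T cells and is induced by interferon gamma, fell from 11.3, 9.62 and 27.9 CPM to 1.38, 1.90 and 1.01 CPM (11.4-fold, and 7.38-fold without Vector replicate 3). The monocyte and T cell attractants CCL2 and CCL5 fell 2.92-fold and 4.58-fold. CXCL14, a chemokine made constitutively by epithelia, rose from 0.117, 0 and 0.536 CPM to 6.41, 8.04 and 7.22 CPM (32.6-fold; adjusted p = 0.000709), and without Vector replicate 3 the fold was 118. CXCL8, the neutrophil attractant, did not pass, at 222, 246 and 252 CPM against 424, 217 and 357 CPM (adjusted p = 0.224). NF-kB genes gave 3 rises and 1 fall among 26. The inhibitor NFKBIA rose from 425, 421 and 405 CPM to 645, 840.1 and 761 CPM (1.80-fold; adjusted p = 0.00434) and TNFAIP2 rose 2.79-fold, and both lie on chromosome 14. The lipopolysaccharide co-receptor CD14 rose 2.01-fold and complement C3 fell 1.82-fold.

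Of 41 glycoprotein and proteoglycan genes 7 fell and 4 rose (median −0.22, and −0.28 without Vector replicate 3). Besides FN1, THBS1, the gene of thrombospondin 1, fell from 214, 205 and 176 CPM to 72.1, 53 and 55.6 CPM (3.29-fold; adjusted p = 8.78e-05) and LAMB1, a laminin chain, from 38.9, 46.9 and 62.4 CPM to 15.3, 16.9 and 17.4 CPM (2.99-fold). DCN, the small proteoglycan decorin and a fibroblast marker, rose from 4 counts in the Vector group to 223 in mut-FTO, a ratio of 58.2 (counting interval 22.4 to 215; adjusted p = 0.00130). All 4 counts were in Vector replicate 2. Of the other fibroblast markers, THY1, POSTN and DPT had no count, and COL1A1 stood at 7.54, 8.72 and 7.53 CPM against 5.32, 7.23 and 7.37 CPM (adjusted p = 0.589). Among the 4 fibroblast markers tested, 2 had a positive and 2 a negative log2 change, and only DCN passed.

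Of 46 genes of collagens and matrix enzymes 17 fell, 3 rose and 26 did not pass (median −0.55, and −0.52 without Vector replicate 3, where 19 fell and 5 rose). ADAM19, a membrane metalloprotease, fell from 25.4, 21.1 and 21.0 CPM to 3.78, 5.09 and 3.93 CPM (5.28-fold; adjusted p = 2.02e-05). SERPINE2, an inhibitor of serine proteases, fell 2.63-fold (adjusted p = 0.000142). The metalloprotease inhibitors TIMP2 and TIMP1 fell 6.23-fold and 3.14-fold, the latter in the run of X genes. MMP9, a gelatinase, fell 5.26-fold, and PXDN, which cross-links collagen IV, 18.8-fold (12.2-fold without mut-FTO replicate 1 and 60.5-fold without replicate 2). MMP13, a collagenase, and LOX, which cross-links collagens, rose: MMP13 stood at 43.9, 59.9 and 124 CPM against 417, 396 and 353 CPM (5.11-fold) and LOX rose 3.35-fold. Of 34 integrin and focal adhesion genes 6 fell and 1 rose. The fibronectin receptor chain ITGA5 fell from 292, 334 and 246 CPM to 86.7, 137 and 117 CPM (2.56-fold; adjusted p = 0.000837), and ITGB3, a chain of the vitronectin receptor, fell 6.93-fold. The contractile genes ACTA2, MYL9 and TPM1 fell 4.72-fold, 4.92-fold and 2.12-fold.

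Of 20 genes of mesenchymal transition 5 fell and 1 rose (median −0.45, and −0.35 without Vector replicate 3). L1CAM and CDH4, adhesion molecules of neural and migrating cells, fell 6.24-fold and 6.21-fold. NRP1, a co-receptor of semaphorins and VEGF, fell 2.61-fold. CDH1, or E-cadherin, did not pass (log2 −0.18, SE 0.15; adjusted p = 0.544).

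Of 14 genes of the EGF receptor family and its ligands 3 fell, none rose and 11 did not pass (median −0.28, and −0.19 without Vector replicate 3). By edgeR, 2 were higher at an unadjusted p under 0.05, and no rise was called by DESeq2 or by limma-voom. All that fell were ligands. NRG1 stood at 176, 165 and 183 CPM in Vector and 80.7, 80.1 and 82.0 CPM in mut-FTO (2.16-fold lower; adjusted p = 0.000324), HBEGF at 294, 342 and 327 CPM against 132, 177 and 147 CPM (2.12-fold) and TGFA fell 1.73-fold. The receptor EGFR did not pass with all libraries (log2 0.17; adjusted p = 0.668) and was higher without Vector replicate 3 (log2 0.45; adjusted p = 0.0126). Of 28 ERK feedback and immediate early genes 10 fell and 1 rose (median −0.55, and −0.64 without Vector replicate 3, where 12 fell). The phosphatase DUSP6, which inactivates ERK and is induced by it, fell from 241, 315 and 339 CPM to 146, 135 and 139 CPM (2.13-fold; adjusted p = 0.00102). DUSP4 and DUSP5, of the same family, fell 2.62-fold and 3.04-fold, the AP-1 subunit FOSL1 3.05-fold, and CCND1, or cyclin D1, 2.12-fold. PHLDA1 stood at 432, 423 and 786 CPM against 155, 176 and 157 CPM (3.36-fold). SPRY2, a receptor feedback inhibitor, was the member that rose, and its call was kept only without Vector replicate 2 or 3.

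ETS transcription factors, several of which are activated or induced by ERK, gave 6 falls among 16 tested and no rise with edgeR, DESeq2 or limma-voom, though 1 was higher at an unadjusted edgeR p under 0.05 (median −0.26, and −0.19 without Vector replicate 3, where 2 rose). ETV5 fell from 11.4, 9.42 and 11 CPM to 1.03, 1.15 and 2.11 CPM (7.40-fold; adjusted p = 8.4e-05) and ETV4 from 39.9, 37.1 and 26.6 CPM to 11.4, 12 and 10.2 CPM (3.08-fold). ELK1 fell 2.11-fold and lies in the run of X genes. The calls of ETS1 and ELK3 were lost in some fits without a single library (adjusted p up to 0.140 and 0.0784).

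Signals of the TGF-beta superfamily gave 7 rises and 1 fall among 30 tested genes (median 0.18, and 0.14 without Vector replicate 3). BMP7, a ligand, rose from 15.6, 13.7 and 11.6 CPM to 51.6, 52.4 and 58.7 CPM (3.97-fold; adjusted p = 2.63e-05). ID2, ID3 and SMAD6, all induced by BMP signalling, rose 2.14-fold, 2.86-fold and 2.27-fold. LRRC32, which tethers latent TGF-beta on the cell surface, rose from 10 to 288 counts over the groups, a ratio of 30.0 (counting interval 16.1 to 63.3). Its fitted fold was 29.6, and 47.5 without Vector replicate 3. INHBA, the activin A subunit, fell 2.37-fold. Of 29 Wnt genes 5 rose and 3 fell. The ligands WNT11 (3.30, 3.35 and 0.874 CPM to 18, 16.5 and 18.5 CPM), WNT10A (2.32-fold), WNT4 (2.24-fold) and WNT7B (2.11-fold) and the receptor FZD1 (2.36-fold) rose, whereas WNT3 and SFRP1 fell.

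Of 23 FGF and IGF genes 5 rose and 4 fell (median 0.02), and without Vector replicate 3 6 rose and 8 fell (median −0.06). The IGF binding proteins rose: IGFBP3 from 487, 596 and 548 CPM to 1231, 1381 and 1473 CPM (2.50-fold; adjusted p = 0.000242), and IGFBP2 from 8 counts in the Vector group to 666 in mut-FTO, a ratio of 86.9 (counting interval 43.8 to 202). All 8 counts were in Vector replicate 1. FGF2 fell 5.55-fold. FGF5, a growth factor known for ending hair growth, stood at 0.789, 1.15 and 1.66 CPM in Vector and had no count in mut-FTO, at least 40.6-fold lower. Of 26 HOX and positional factors 3 rose and 1 fell, and without Vector replicate 3 7 rose and 1 fell. EN1, a homeobox factor of limb and skin patterning, rose from 0.234, 0.196 and 0.169 CPM to 2.38, 2.78 and 1.42 CPM (10.8-fold), and HOXC13, a factor of hair and nail, rose 1.89-fold.

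Metabolic lists held single large changes. Of 33 NRF2 targets and aldo-keto reductases 6 rose and 1 fell (median 0.18, and 0.10 without Vector replicate 3). AKR1B10, which reduces retinal and lipid aldehydes, rose from 1.55, 3.30 and 1.78 CPM to 20, 24.1 and 23.5 CPM (10.2-fold; adjusted p = 6.19e-05), AKR1C3 2.25-fold and GPX2, a glutathione peroxidase, 1.99-fold. GPX2 lies on chromosome 14. HMOX1, or heme oxygenase 1, fell 2.20-fold. Of 15 retinoid genes 2 rose and none fell with edgeR, 1 was lower at an unadjusted p under 0.05, and DESeq2 called CYP26B1, which degrades retinoic acid, lower (log2 −0.51; adjusted p = 0.047). Those that rose were ALDH1A1, which makes retinoic acid, going from 0.497, 0.419 and 0.338 CPM to 4.08, 4.11 and 5.31 CPM (10.7-fold) and the carrier CRABP2, 2.01-fold higher. Without Vector replicate 3, 4 rose and 1 fell. Barrier lipid genes moved both ways, with 5 rises and 4 falls among 28. ALOX12B, a lipoxygenase of the lipid envelope, rose 8.90-fold and FABP5, an epidermal fatty acid carrier, went from 15.5, 17.3 and 31.4 CPM to 73.2, 71.1 and 61.4 CPM (3.20-fold). CERS3, which makes the long ceramides of the barrier, fell, as did PLIN2, a coat protein of lipid droplets (2.31-fold). ABCA4, a retinoid and lipid transporter, rose from 7 to 616 counts over the groups, a ratio of 91.8 (counting interval 44.3 to 229).

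Of 25 sterol genes only TM7SF2 rose, a call kept only with all libraries or without a Vector library. Of 37 glycolysis and hypoxia genes 1 rose (2.70%) and 3 fell (8.11%), beside 3.27% and 4.51% of all genes. Among the falls were the glucose transporter SLC2A3, from 38.5, 41.5 and 42.2 CPM to 6.11, 8.32 and 9.62 CPM (5.08-fold; adjusted p = 2.05e-05), and VEGFA, 1.86-fold.

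Cytosolic ribosomal protein genes had a positive log2 change in all 79 cases, but only 7 passed (8.86%, beside 3.27% of all genes). Their median was 0.61, and 0.44 without Vector replicate 3, where 27 rose. Summed over the list, they stood at 76174, 59530.4 and 42273 CPM in Vector and 95331, 90833 and 84719 CPM in mut-FTO, with replicate 3 the lowest of the Vector libraries. RPL27A, a large subunit protein, stood at 1263, 971 and 706 CPM against 1743, 2160.0 and 1561 CPM (1.86-fold; adjusted p = 0.0250, and up to 0.119 without a single library). None of the 7 calls was kept in every fit without a single library. Nuclear genes of the respiratory chain gave 7 rises and no fall among 72 (median 0.57, and 0.37 without Vector replicate 3, where 20 rose and 1 fell). Of these 7 only ATP5O, a subunit of ATP synthase, kept its call throughout (88.5, 73.4 and 69.5 CPM to 134, 133 and 122 CPM).

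The 13 mitochondrially encoded genes turned with Vector replicate 3. Their sum was 41124, 39956 and 147719 CPM in Vector and 54306, 81437 and 58165 CPM in mut-FTO. With that library the median was −0.22 and no member passed with edgeR, DESeq2 or limma-voom, nor at an unadjusted edgeR p under 0.05. Without it the median was 0.72 and 11 rose. MT-ND4L, a subunit of complex I, stood at 557, 602 and 4424 CPM against 711, 1506 and 867 CPM. Vector replicate 3 also differed by transcript length. The 12531 genes with a known length were divided into 5 classes of nearly equal size. Each library was set against the mean log2 level of the 6 libraries compared. In the shortest class Vector replicate 3 lay −0.389 from that mean in the median, and in the longest 0.345. In the other 5 libraries these medians ranged from −0.165 to 0.161. The median change in mut-FTO ran from 0.196 in the shortest class to −0.107 in the longest, and from 0.076 to 0.051 without Vector replicate 3. Ribosomal and respiratory chain transcripts are short, and the part of length and of this library in their changes was not tested.

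**Figure D5:**
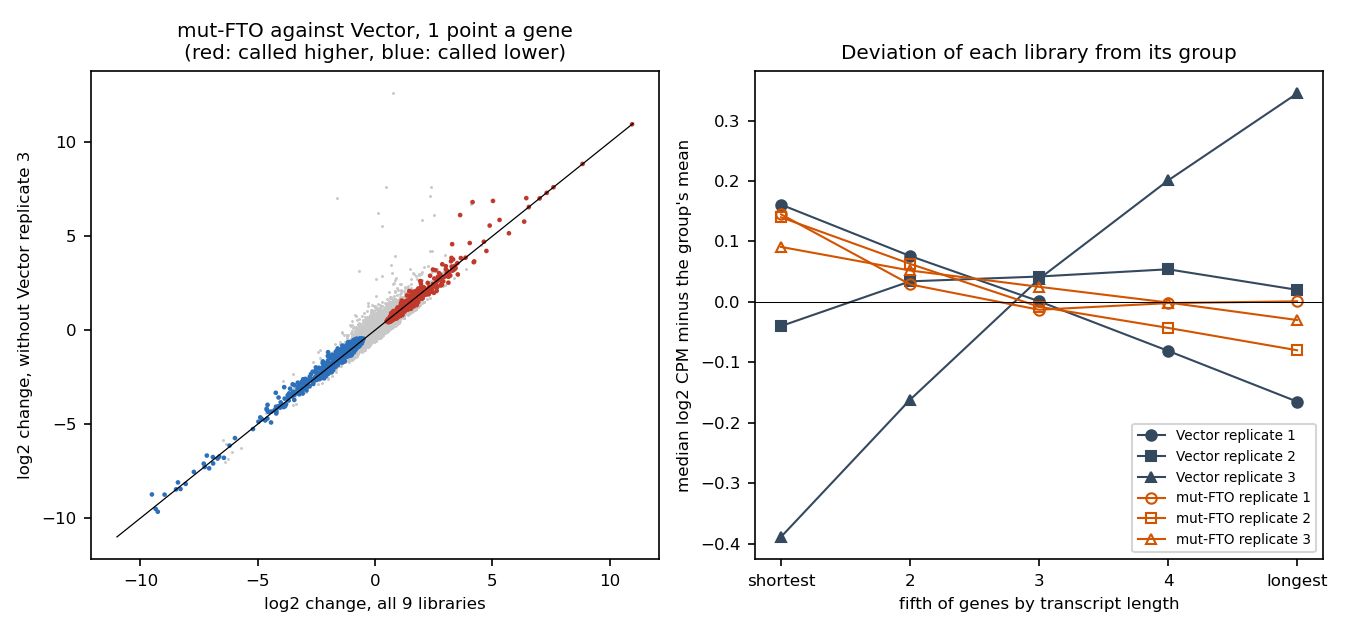
Left: log2 change of each tested gene in mut-FTO against Vector with all 9 libraries and without Vector replicate 3, red where it rose and blue where it fell with all libraries, with the line of equal values. Right: median deviation of each library's log2 CPM in 5 classes of transcript length, where Vector replicate 3 runs from −0.389 to 0.345. Deviations are from the mean of the 6 libraries compared, although the panel is labelled with the group.

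Of 42 G1/S genes 5 fell (11.9%, beside 4.51% of all genes) and none rose with edgeR, DESeq2 or limma-voom, though 2 were higher at an unadjusted edgeR p under 0.05. Their median was −0.20 and 31 had a negative change, and without Vector replicate 3 the median was −0.27, 9 fell and 1 rose. RRM2, a subunit of ribonucleotide reductase, fell from 22.1, 22.3 and 21.1 CPM to 8.70, 10.9 and 10.3 CPM (2.19-fold; adjusted p = 0.00151) and was the only G1/S call kept with any library left out. Of 47 G2/M genes 4 fell (8.51%) and 1 rose, and 42 had a negative change (median −0.34). Without Vector replicate 3 the median was −0.19, 10 fell and 1 rose. Of the 5 calls with all libraries, none was kept throughout. The proliferation marker MKI67 stood at 44.3, 48.0 and 92.5 CPM against 35.5, 39.3 and 31.2 CPM and did not pass (adjusted p = 0.0729). Of 30 p53 targets 2 fell (6.67%) and 1 rose (3.33%), near the 4.51% and 3.27% of all genes. Without Vector replicate 3, 11 fell and 3 rose, beside 8.52% and 6.69% of all genes. GDF15, a stress-induced cytokine, fell from 3.80, 4.14 and 2.96 CPM to 0.108, 0.645 and 0.0578 CPM (13.9-fold, and 41.7-fold without mut-FTO replicate 2; adjusted p = 0.00242). Of 34 genes of the unfolded protein and integrated stress responses 4 fell and none rose with edgeR, and 12 fell and 3 rose without Vector replicate 3. With all libraries 4 were higher at an unadjusted edgeR p under 0.05, and DESeq2 called ATF5 and ASNS, a transcription factor and the asparagine synthetase of that response, higher (log2 0.49 and 0.46; adjusted p = 0.0135 and 0.0447). TRIB3, induced by the stress factor ATF4, stood at 281, 230.2 and 119.5 CPM against 107, 103 and 100.2 CPM (2.03-fold lower; adjusted p = 0.0245), a call that was lost without any library of either compared group except Vector replicate 3.

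FTO aside, none of 26 genes of the m6A machinery passed with edgeR, with or without Vector replicate 3 (median −0.02, and 0.17). With all libraries 1 was lower at an unadjusted p under 0.05, and neither DESeq2 nor limma-voom made a call. Without Vector replicate 3, DESeq2 called the nuclear reader YTHDC1. The writers METTL3 and METTL14 changed by −0.06 (SE 0.20) and 0.16 (SE 0.29) on the log2 scale, the other eraser ALKBH5 by 0.17 (SE 0.17) and the reader YTHDF2 by −0.01 (SE 0.16). Leukocyte regulators of actin and small GTPases, which HaCaT cells also expressed, gave 3 falls and 2 rises among 11. Besides LCP1, the GTPase RAC2 fell from 105, 104 and 118 CPM to 27.7, 39.6 and 32.4 CPM (3.29-fold; adjusted p = 7.05e-05).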

How the data were processed

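Libraries of HaCaT mRNA were grouped by their titles. The authors deposited whole-number counts per gene, not normalized. The submitters' processing notes list HISAT2, StringTie and the mouse build mm10, although cells and symbols are human. For versions, counter, strand and annotation, nothing is given in the sources used here. In all, the table has 21170 features, 1441 without a gene name, and 0 columns of values were left unused. Letter codes matched its columns to groups: N for Vector, F for FTO, tF for mut-FTO.

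The tests used edgeR 4.0.16 (R 4.3.3). Of all features, filterByExpr (minimum count 10, minimum total 15) kept 13713 genes, TMM scaled the libraries, and a robust quasi-likelihood fit of all 9 libraries had a term per group. The adjusted p (Benjamini-Hochberg) threshold was 0.05. The script was tested on simulated data. Log2 CPM used a prior count of 2. A group without a count was set at 3 counts in total; ratios with up to 10 counts in the lower group have exact 95% intervals, which cover counting error only, since without molecular identifiers a read is not an independent molecule. At 32222203 to 37846027 counts per library, no pair among the 6 libraries compared agreed within sampling noise.

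The members and lists, like the comparison, were chosen with earlier results of these data known. Among 1254 list symbols, 1233 stood in the table, 18 under an older name, and 3 were unmatched. Genes named are the 5 markers of the comparison, the 12 largest rises and 12 largest falls called with and without Vector replicate 3 (averaging 10 CPM or more where higher, no overlap), and up to 4 called members of lowest p per list (2 where fewer than 2 were called). Other genes, those by chromosome included, were picked after their values were seen. Chromosomes and promoters are RefSeq's (GRCh38.p14), and transcript lengths are from GENCODE. Alternatives were other scalings, filters and tools (DESeq2 1.42.0, limma 3.58.1 with voom), the replicate number as a block, and libraries left out. A few members of the lists are not reported here by name.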

Additional observations from a re-analysis of the deposited data

How the results depend on the processing

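The counts of 449 rises and 618 falls moved by over 1.5 times with DESeq2 (708 and 972), in a fit of only the 6 libraries compared (235 and 368), and without Vector replicate 3 and mut-FTO replicate 2 together (1186 and 1275). With a single library left out, rises ranged from 248 to 917 and falls from 367 to 1169. Rises were 917 without Vector replicate 3, 298 without Vector replicate 2, 248 without mut-FTO replicate 2 and 254 without mut-FTO replicate 3, and falls were 1169 without Vector replicate 3 and 367 without mut-FTO replicate 3. Scaling by library size alone gave 354 and 738, so 32.4% of calls were rises instead of 42.1%, and moved the median of all genes to −0.074. RLE factors, limma-voom, other low-count filters and the table without mitochondrial genes and unnamed loci stayed within 1.5 times. The replicate block gave 337 and 476 genes, and 711 and 945 without Vector replicate 3. Same-numbered libraries were not treated as pairs because no label states that a shared number marks a shared culture, day or batch. Their deviations from the group means correlated at −0.05, −0.023 and −0.127. With few libraries per group, and Vector replicate 3 apart from the others, these values cannot decide whether libraries were paired.

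Of 156 genes named by rule, 144 were called, 113 of them without any single library and 111 under all 19 alternatives. MT-ND4L, not called with all libraries, turned to a called rise of 0.439 on the log2 scale without Vector replicate 3 and mut-FTO replicate 2 (adjusted p = 0.0149). Its list gave no value in the table without mitochondrial genes. Over the same alternatives, applied to chromosomes after seeing the data, the median of the X run ranged from −0.86 to −0.76, and those of chromosomes 14, 15, 18 and 22 from 0.28 to 0.40, −0.33 to −0.18, −0.41 to −0.17 and 0.13 to 0.38. The cause of these shifts was not tested. Depth limits genes below 1 CPM, where a single count moves a ratio.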

Other observations

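Several genes outside the lists, chosen after their values were seen, were called with any library left out (edgeR's quasi-likelihood test, Benjamini-Hochberg adjusted p). DLX3, a homeobox factor of the epidermis, stood at 3.59, 3.41 and 4.12 CPM in Vector and 9.97, 9.67 and 10.7 CPM in mut-FTO (2.73-fold higher; adjusted p = 0.000911), and TP73, a relative of p53, rose 2.59-fold. CKB, the brain-type creatine kinase, rose from 12.9, 10.6 and 7.58 CPM to 69.2, 71.9 and 77.9 CPM (7.05-fold; adjusted p = 7.05e-06).

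Among the falls was STC1, the hormone stanniocalcin 1, from 148, 192 and 359 CPM to 32.5, 44.4 and 34 CPM (6.30-fold, and 4.63-fold without Vector replicate 3, its highest library). NT5E, which makes extracellular adenosine, fell 6.85-fold and PTGS2, the inducible cyclooxygenase, 3.06-fold. IDO1, a tryptophan-degrading enzyme induced by interferon gamma, fell from 6.05, 8.69 and 5.22 CPM to 0.568, 1.29 and 1.01 CPM (6.99-fold; adjusted p = 0.000776). The complement proteases C1R and C1S fell 1.96-fold and 2.73-fold. The groups did not overlap for any of these genes, as for 448 of all 449 rises and 615 of all 618 falls. Among all 13713 genes tested, 1671 were higher and 1622 lower without overlap.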
